A study of Mus musculus with 3 samples.

Results

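The 10 genes described here belong to the mouse insulin, FoxO and muscle atrophy pathway. They are 10 of the 30415 gene symbols listed for the dissociated hearts, and all 10 were read in every library. They are the receptors Insr and Igf1r, the adaptors Irs2 and Grb14, the transcription factors Foxo1 and Foxo3, the ubiquitin ligase genes Fbxo32 and Trim63, the kelch gene Klhl38 and the endoplasmic reticulum autophagy receptor Retreg1. They were chosen on their values in PD1/PEM against isotype in these same libraries. That comparison is therefore given here as a description of the members, and nothing is supported with it.

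The hearts came from NOD/SCID mice, a strain without working T and B lymphocytes. Mice were injected on day 0 and day 7 with an isotype control antibody or with an immune checkpoint inhibitor, an antibody that blocks PD-1 (pembrolizumab, PEM) or PD-L1 (atezolizumab, ATZ), and hearts were taken on day 14. Hearts of 3 mice were pooled in each group and read as 1 droplet single-cell library with 10x Genomics 3′ chemistry, so each group is 1 sample and no test between groups was possible. Intervals in the text are 95% intervals for counting error only and say nothing of differences between mice. Dose, age and sex are not given in the labels. Titles and treatment tags contradict each other, since the sample titled PD1/PEM is tagged with atezolizumab and that titled PDL1/ATZ with pembrolizumab. Libraries are named by their titles, and a difference cannot be put down to one named antibody.

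In muscle, insulin and IGF-1 act through their receptors and the IRS adaptors on the kinase AKT, which phosphorylates FoxO factors and keeps them out of the nucleus. When this signal is low, FoxO factors enter the nucleus and switch on genes of protein breakdown, among them Fbxo32, which encodes atrogin-1, and Trim63, which encodes MuRF1. Both are muscle ubiquitin ligases that mark proteins for the proteasome and are known as markers of muscle wasting. FoxO factors also act on Insr and Irs2 themselves, and Grb14 binds the insulin receptor and inhibits its kinase. In heart muscle the same pathway takes part in the control of cell size.

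Promoter windows, from 250 bases before to 50 bases after a transcript start, were available from RefSeq (GRCm38.p6) for 7 of the 10 members, in 10 windows. They were searched on both strands for 3 short forms of the binding motif of forkhead factors, the family of FoxO. GTAAACA was in 3.65% of all 32851 promoter windows, GTAAATA in 3.04% and CAAAACA in 6.28%. Among the member windows, GTAAACA was found in that of Trim63, GTAAATA in 1 of the 4 windows of Retreg1, and CAAAACA in that of Irs2 and in 2 other windows of Retreg1. The windows of Foxo1, Foxo3, Igf1r and Grb14 held none of the 3. A match is a run of letters and not evidence that a factor binds there. Of the windows with a match, those of Trim63 and Irs2 and the Retreg1 window with GTAAATA are shown. The 2 Retreg1 windows with CAAAACA are not shown. The match is in capitals as it reads on the strand of the gene, so that a match on the other strand appears as TGTTTAC or TGTTTTG.
Trim63, chr4:134314870-134315169, plus strand: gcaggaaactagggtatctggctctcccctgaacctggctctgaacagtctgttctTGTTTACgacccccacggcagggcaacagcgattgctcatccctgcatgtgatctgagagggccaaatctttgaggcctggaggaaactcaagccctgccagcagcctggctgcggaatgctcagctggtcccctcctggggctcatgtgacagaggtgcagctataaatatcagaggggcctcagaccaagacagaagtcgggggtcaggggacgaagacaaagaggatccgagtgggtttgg
Irs2, chr8:11008880-11009179, minus strand: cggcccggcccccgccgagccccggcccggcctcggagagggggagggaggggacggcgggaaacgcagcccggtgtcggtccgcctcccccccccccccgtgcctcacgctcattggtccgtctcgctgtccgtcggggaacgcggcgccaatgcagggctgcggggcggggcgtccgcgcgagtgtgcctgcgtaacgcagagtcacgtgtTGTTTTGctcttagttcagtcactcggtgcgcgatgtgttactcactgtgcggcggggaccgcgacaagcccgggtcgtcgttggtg
Retreg1, chr15:25942429-25942728, plus strand: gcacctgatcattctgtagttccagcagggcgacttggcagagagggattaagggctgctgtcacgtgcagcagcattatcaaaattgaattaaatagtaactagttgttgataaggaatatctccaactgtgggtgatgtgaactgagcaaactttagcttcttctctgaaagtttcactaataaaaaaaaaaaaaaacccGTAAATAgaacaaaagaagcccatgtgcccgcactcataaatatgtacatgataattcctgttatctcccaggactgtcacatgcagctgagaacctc
The match lies 194 bases before the RefSeq start in Trim63, 37 before it in Irs2 and 48 before it in this Retreg1 window. This Retreg1 window lies at a start inside the gene. The Irs2 window lies wholly upstream of the GENCODE span given for Irs2 below, so the Irs2 starts of RefSeq and GENCODE differ.

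The libraries held 9510 isotype cells with 16677883 UMIs (unique molecules counted), 6388 PD1/PEM cells with 14766346 and 11599 PDL1/ATZ cells with 15144668, at a median of 1532.5, 2013.5 and 1010 UMIs per cell. Mitochondrial genes gave a median of 27.1% of a cell's UMIs in isotype, 26.9% in PD1/PEM and 8.05% in PDL1/ATZ, and 1942 symbols read in the other libraries were at 0 in PDL1/ATZ. Between isotype and PD1/PEM, 23 barcodes were found in both, and PDL1/ATZ had 0 in common with either. Nearly every cell held RNA of several cell types: under a rule of 3 or more markers of cardiomyocytes, the muscle cells of the heart, with at most 1 marker of any other class, only 480, 64 and 108 cells counted as cardiomyocyte cells. Cells were therefore also ranked by the share of their nuclear-encoded UMIs that came from 12 cardiomyocyte markers, among them Ryr2, Ctnna3 and Trdn, a grading chosen after the data were seen. It put 870 isotype, 503 PD1/PEM and 62 PDL1/ATZ cells at 2% or more, called marker-rich cells here. Cells under 0.5% numbered 1467, 2876 and 10181 and show the level that free RNA and other cell types give.

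Marker-rich cells had medians of 2474, 3755 and 2910.5 UMIs in isotype, PD1/PEM and PDL1/ATZ, and the 12 markers gave 2.71%, 2.65% and 3.16% of their nuclear-encoded UMIs. The share is a graded measure, and 469, 273 and 21 cells lay between 1.8% and 2.2%. Of the 12 markers, 1 (Lmod2) was past 1.5-fold above isotype in PD1/PEM marker-rich cells and 0 were past it below, while in PDL1/ATZ 7 were higher and 0 lower. Summed levels of other lists also differed between the libraries within these cells. A list of 7 atrial genes stood at 5295 CPM (counts per 1000000 UMIs of the same cells) in isotype, 2723 in PD1/PEM and 2487 in PDL1/ATZ, with 1 of the 7 at 0 in PDL1/ATZ. A list of 5 ventricular genes stood at 3923, 2719 and 4101, with none at 0, and 10 immediate early genes, which respond within minutes to stress and handling, at 2613, 4476 and 2053, with none at 0. Endothelial markers stood at 1690, 1975 and 1604 CPM and fibroblast markers at 1331, 1588 and 520, again with none at 0, and 5, 5 and 6 of the 7 lymphocyte markers were at 0. The part of these shifts in the values below was not tested.

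Over all deposited cells, Klhl38 was the member with the widest spread between libraries. A gene is counted as apart from isotype when it is at least 1.5-fold higher or lower with at least 50 UMIs in both libraries together. In PD1/PEM 1 of the 10 members (Klhl38) was past 1.5-fold higher and 0 were lower, where 5.51% of all 14748 genes were higher and 4.57% lower. In PDL1/ATZ 1 member (Klhl38) was higher and 2 (Trim63 and Retreg1) were lower, where 49.6% of 15496 genes were higher and 5.32% lower. In sums over a whole library, fewer cells of a type and less RNA per cell cannot be told apart. The PDL1/ATZ values also depend on the scaling, since the median log2 ratio of all genes to isotype was 0.58 there and 0.01 in PD1/PEM.

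**Figure D1:**
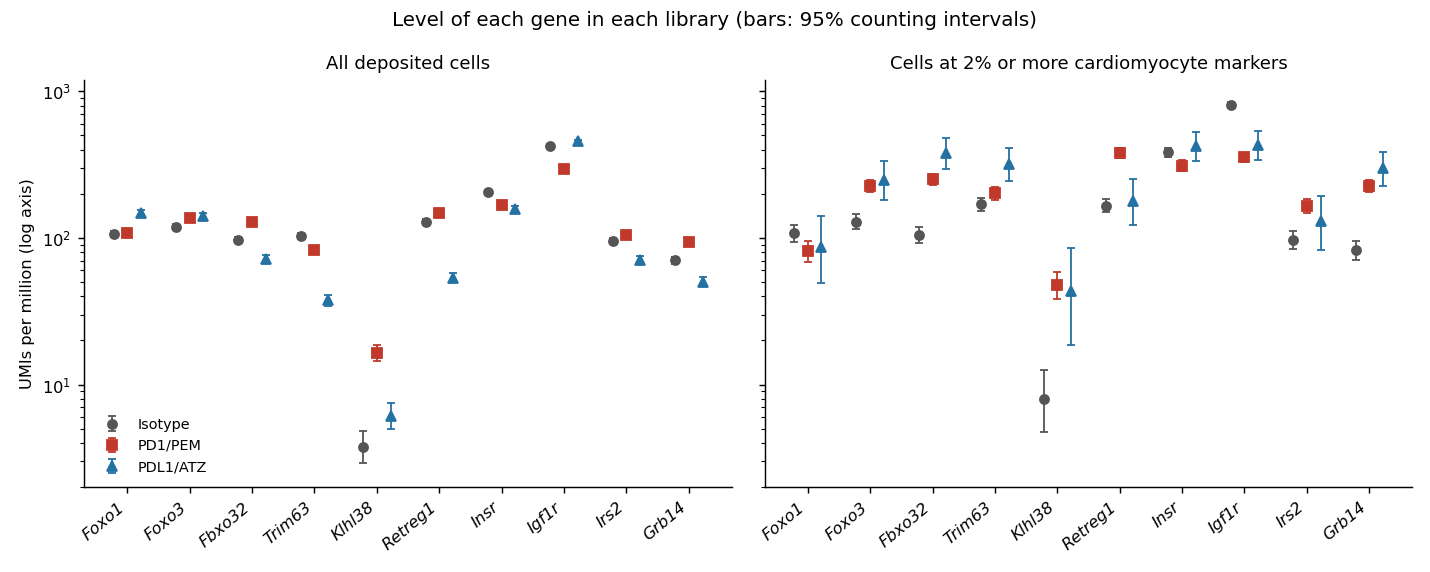
Level of each member in CPM (log axis) in the isotype, PD1/PEM and PDL1/ATZ libraries, over all deposited cells (left) and in marker-rich cells (right), with 95% counting intervals and 1 library per group. In marker-rich cells Klhl38 stood at 8.02 in isotype, 47.9 in PD1/PEM and 43.3 in PDL1/ATZ.

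In marker-rich cells the members separated further. In PD1/PEM 6 of 10 were at least 1.5-fold higher than in isotype (Klhl38, Fbxo32, Foxo3, Retreg1, Grb14 and Irs2) and 1 was lower (Igf1r), where 8.81% of 7842 genes were higher and 8.17% lower. Trim63, Foxo1 and Insr were within 1.5-fold. In PDL1/ATZ 9 members passed the minimum of UMIs, of which 4 were higher (Fbxo32, Trim63, Foxo3 and Grb14) and 1 lower (Igf1r), where 30.9% of 5870 genes were higher and 19.3% lower. Both comparisons use the same isotype library, so their values are given side by side and not as separate support.

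The insulin receptor gene Insr (chr8:3122061-3279617, minus strand, GRCm38) stood over all cells at 206 CPM in isotype, 167 in PD1/PEM and 158 in PDL1/ATZ. In marker-rich cells it stood at 384, 311 and 423. Isotype was thus the highest library over all cells and PDL1/ATZ the highest in marker-rich cells, where its interval of 334 to 527 held the isotype value. The ratio in marker-rich cells was 1.23-fold lower in PD1/PEM (interval 1.11 to 1.37) and 1.10-fold higher in PDL1/ATZ (0.862 to 1.39). The latter turned to a log2 ratio of -0.16 when scaled to nuclear-encoded UMIs and to 1.40-fold lower with median-of-ratios scaling. In every library Insr was lower in the cells under 0.5% markers, at 125, 123 and 149 CPM.

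Igf1r (chr7:67952827-68233668, plus strand), the receptor for insulin-like growth factor 1, stood over all cells at 423 CPM in isotype, 296 in PD1/PEM and 456 in PDL1/ATZ. In marker-rich cells the levels were 811, 354 and 428 CPM. Isotype was the highest library there and the counting intervals of the other libraries, 328 to 382 and 339 to 533, did not reach it. The level was 2.29-fold lower in PD1/PEM (2.09 to 2.50) and 1.89-fold lower in PDL1/ATZ (1.51 to 2.40) than in isotype. Across the grades of marker share, Igf1r in isotype stood at 305, 322, 448 and 811 CPM from the lowest to the highest grade. In PD1/PEM the 4 grades held 280, 280, 318 and 354, and in PDL1/ATZ 456, 457, 467 and 428. In the cells under 0.5% PD1/PEM was 1.09-fold lower than isotype (0.996 to 1.18) and PDL1/ATZ 1.496-fold higher (1.39 to 1.62). The PDL1/ATZ ratio in marker-rich cells shrank to 1.12-fold lower when cells were thinned to 700 UMIs.

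Irs2 (chr8:10984681-11008458, minus strand), the adaptor that links both receptors to the PI3 kinase and whose promoter match is printed above, stood over all cells at 95.3 CPM in isotype, 104 in PD1/PEM and 70.9 in PDL1/ATZ. In marker-rich cells it stood at 97.1, 166 and 130. The ratio was 1.71-fold higher in PD1/PEM (1.43 to 2.04) and 1.34-fold higher in PDL1/ATZ (0.840 to 2.05), the latter resting on 24 UMIs with an interval that included no difference and a log2 ratio of -0.18 with median-of-ratios scaling and 0.88 when thinned to 700 UMIs. The PD1/PEM ratio was 1.44-fold, short of 1.5-fold, in the cells over 25% mitochondrial. In cells under 0.5% markers isotype was instead the highest library, with 110 CPM, against 81.3 in PD1/PEM and 67.6 in PDL1/ATZ. A gene on the other strand, 9530052E02Rik, overlaps Irs2 and was read in 63 UMIs in PDL1/ATZ and 0 in the others. It is among the 2893 symbols read only in PDL1/ATZ, which were left out of the comparisons of that library.

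Grb14 (chr2:64912476-65024987, minus strand), the inhibitory adaptor of the insulin receptor, stood over all cells at 70.4 CPM in isotype, 94.5 in PD1/PEM and 50.4 in PDL1/ATZ. Marker-rich cells held 82.4, 228 and 298 CPM. The intervals of PD1/PEM (207 to 250) and PDL1/ATZ (225 to 388) overlapped each other and lay above that of isotype (70.9 to 95.2). The level was 2.77-fold higher in PD1/PEM (2.32 to 3.30) and 3.62-fold higher in PDL1/ATZ (2.63 to 4.91). Grb14 climbed least with marker share in isotype, where the grades held 57.0, 66.5, 77.0 and 82.4 CPM. In PD1/PEM they held 52.0, 77.0, 130 and 228, and in PDL1/ATZ 41.7, 80.9, 115 and 298.

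**Figure D2:**
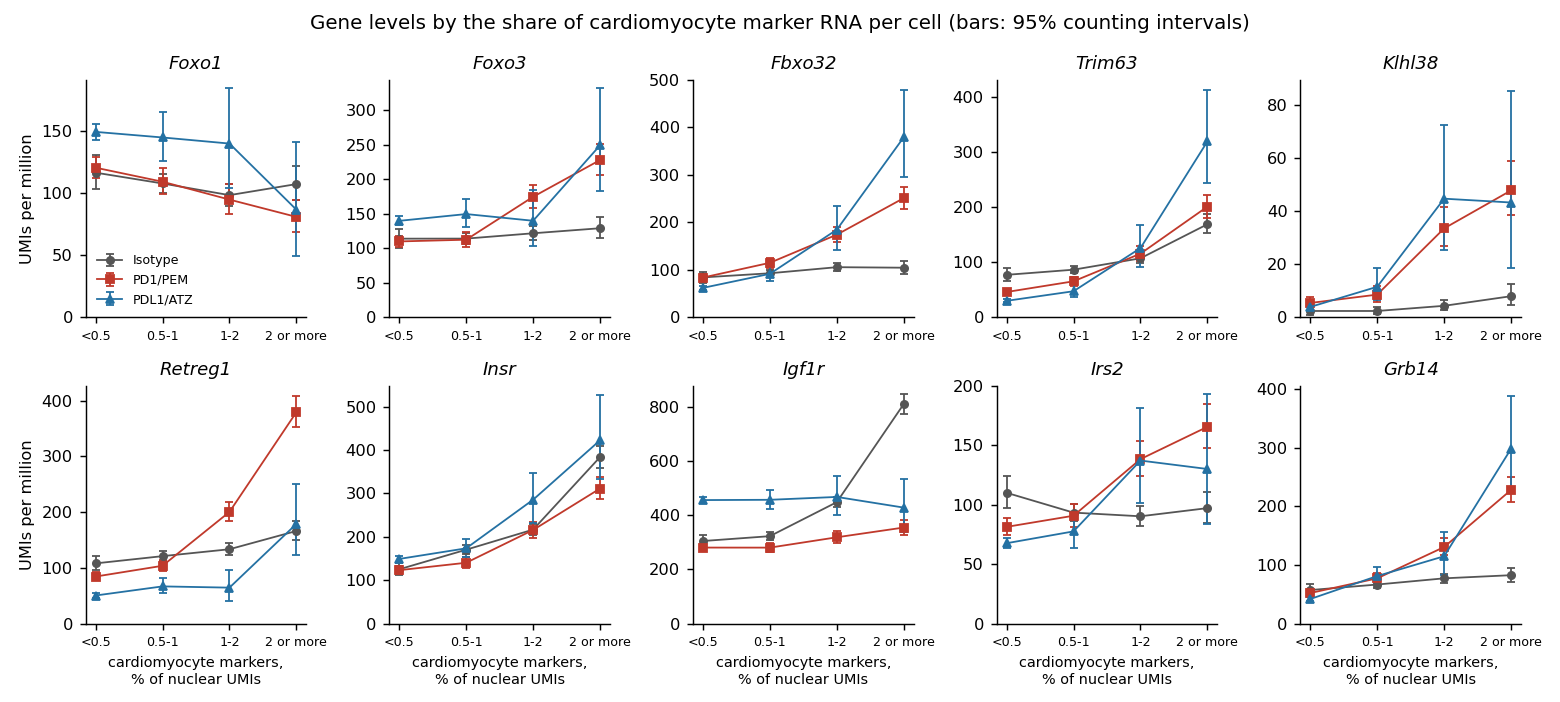
Level of each member in CPM (vertical axes from 0, with their own scale) in cells graded by the percent of nuclear-encoded UMIs from 12 cardiomyocyte markers (horizontal axes), per library, with 95% counting intervals. Grb14 and Fbxo32 climb with the marker share in PD1/PEM and PDL1/ATZ and reach 82.4 and 105 CPM in isotype, while Igf1r reaches 811 in isotype, 354 in PD1/PEM and 428 in PDL1/ATZ.

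Of the FoxO factor genes, Foxo3 (chr10:42181841-42276755, minus strand) stood over all cells at 118 CPM in isotype, 137 in PD1/PEM and 142 in PDL1/ATZ. In marker-rich cells it stood at 129, 228 and 249. Both antibody libraries were above isotype there, by 1.76-fold in PD1/PEM (1.52 to 2.05) and 1.93-fold in PDL1/ATZ (1.38 to 2.64), and their intervals overlapped each other. Neither stayed past 1.5-fold in every setting: PD1/PEM came to 1.48-fold when cells were thinned to 700 UMIs, and PDL1/ATZ to a log2 ratio of 0.33 with median-of-ratios scaling and 0.47 with TMM scaling. In cells under 0.5% markers Foxo3 stood at 114, 110 and 140 CPM. The PDL1/ATZ ratio over all cells, 1.20-fold higher, turned to a log2 ratio of -0.06 with nuclear-encoded scaling and to 1.25-fold lower with TMM scaling.

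Foxo1 (chr3:52268336-52353221, plus strand) stood over all cells at 106 CPM in isotype, 108 in PD1/PEM and 148 in PDL1/ATZ. It differed from Foxo3 in marker-rich cells, where it stood at 107, 80.9 and 86.7. The ratio was 1.33-fold lower in PD1/PEM (1.08 to 1.64), and 1.13-fold higher when cells were thinned to 700 UMIs. In PDL1/ATZ it was 1.24-fold lower on 16 UMIs (0.747 to 2.201), and 8.91-fold lower when cells were thinned and then chosen again by marker share. Among the 62 cells themselves, 1 held a Foxo1 UMI after thinning. In PD1/PEM Foxo1 was lower in cells with more marker RNA, at 120, 109, 94.8 and 80.9 CPM over the 4 grades, and in isotype it stood at 116, 108, 98.4 and 107.

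Fbxo32 (chr15:58175879-58214932, minus strand), the atrogin-1 gene, stood over all cells at 97.1 CPM in isotype, 129 in PD1/PEM and 71.8 in PDL1/ATZ. In marker-rich cells it stood at 105 in isotype, 251 in PD1/PEM and 379 in PDL1/ATZ. The 3 counting intervals did not overlap, with isotype lowest at 91.7 to 119, PD1/PEM at 229 to 275 and PDL1/ATZ at 296 to 479. The level was 2.40-fold higher in PD1/PEM (2.05 to 2.82) and 3.62-fold higher in PDL1/ATZ (2.73 to 4.75) than in isotype. Over 13 other settings of scaling, filter and marker share these ratios ranged from 2.16 to 2.91 in PD1/PEM and from 2.36 to 6.18 in PDL1/ATZ, where the highest rests on the 1 cell over 25% mitochondrial. In cells under 0.5% markers PD1/PEM and isotype stood at 84.0 and 84.3 CPM, and PDL1/ATZ at 62.2.

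The share of marker-rich cells with at least 1 Fbxo32 UMI was also lowest in isotype at equal depth. After each cell was thinned to 700 UMIs, 7.02% of marker-rich isotype cells (5.39% to 8.97%), 16.2% of PD1/PEM cells (13.1% to 19.8%) and 17.7% of PDL1/ATZ cells (9.20% to 29.5%) held 1. The PD1/PEM and PDL1/ATZ intervals overlapped. Unthinned shares were 22.3%, 55.7% and 48.4%, with PD1/PEM above PDL1/ATZ. In the cells under 0.5%, the background of free RNA and other types, the thinned shares were 5.58%, 5.77% and 4.31%, at unthinned median depths of 1497, 1995.5 and 999 UMIs. The thinning left out 30, 4 and 0 marker-rich cells with fewer than 700 UMIs, and 122, 70 and 379 of the cells under 0.5%.

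Trim63 (chr4:134315120-134329629, plus strand), the MuRF1 gene whose promoter match is printed above, stood over all cells at 103 CPM in isotype, 83.0 in PD1/PEM and 37.6 in PDL1/ATZ. The marker-rich cells held 169, 201 and 320. Isotype was the highest library over all cells and the lowest in marker-rich cells. There the ratio was 1.19-fold higher in PD1/PEM (1.03 to 1.37) and 1.89-fold higher in PDL1/ATZ (1.41 to 2.49), the latter at a log2 ratio of 0.30 with median-of-ratios scaling. In cells under 0.5% markers Trim63 stood at 77.4 CPM in isotype, 46.2 in PD1/PEM and 30.2 in PDL1/ATZ. Fbxo32 and Trim63, which are read together as atrophy genes, thus differed in size in PD1/PEM marker-rich cells, 2.40-fold against 1.19-fold, with intervals that did not overlap.

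Klhl38 (chr15:58314573-58324169, minus strand) encodes a kelch-like protein of a family in which many members bring substrates to ubiquitin ligases built on cullin 3. Over all cells it was read in 63 UMIs in isotype, 244 in PD1/PEM and 93 in PDL1/ATZ, or 3.78, 16.5 and 6.14 CPM. The ratio was 4.37-fold higher in PD1/PEM (3.30 to 5.87) and 1.63-fold higher in PDL1/ATZ (1.17 to 2.28). The PDL1/ATZ value went from there to a log2 ratio of 0.11 with TMM scaling. In marker-rich cells the counts were 18, 90 and 8 UMIs, or 8.02, 47.9 and 43.3 CPM. PD1/PEM and PDL1/ATZ overlapped there and both stood above isotype, by 5.98-fold (3.57 to 10.5) and 5.41-fold (2.03 to 13.1). The PDL1/ATZ ratio has fewer than 50 UMIs behind it and is not counted as apart.

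Klhl38 stood higher in the upper grades of marker share than in the lower ones in every library. The 4 grades held 5.46, 8.61, 33.6 and 47.9 CPM in PD1/PEM and 3.96, 11.6, 44.8 and 43.3 in PDL1/ATZ. In isotype they held 2.44, 2.44, 4.39 and 8.02, on 6 UMIs in the lowest grade and 18 in the highest. PD1/PEM stood above isotype on either side of a mitochondrial share of 25%, but over it on too few UMIs to be counted as apart. Marker-rich isotype cells held 7.32 CPM at or under it and 9.10 over it, on 10 and 8 UMIs. PD1/PEM cells held 56.2 and 31.6, on 70 and 20 UMIs. The counting intervals over 25%, 3.93 to 17.93 in isotype and 19.3 to 48.8 in PD1/PEM, did not overlap. At a depth of 700 UMIs, 0.595% of marker-rich isotype cells (0.194% to 1.38%) and 2.81% of PD1/PEM cells (1.54% to 4.66%) held a Klhl38 UMI, and 3.23% of the 62 PDL1/ATZ cells, which were 2 cells. The shares in cells under 0.5% were 0.0744%, 0.392% and 0.276%. Unthinned shares in marker-rich cells were 1.95%, 14.7% and 12.9%.

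Klhl38 and Fbxo32 are neighbours, 99.6 kb apart on the same strand of chromosome 15 with 0 protein-coding genes wholly between them. An antisense gene, Gm15943, overlaps both on the other strand, and whether the counting used strand is not given in the sources used here. It was read in 122 UMIs in isotype, 75 in PD1/PEM and 98 in PDL1/ATZ, so it was lowest in the library where Klhl38 was highest. On the outer side of Klhl38, Anxa13 was listed at 0 UMIs in isotype and PD1/PEM and at 38 in PDL1/ATZ. It is among the 2893 symbols read only in PDL1/ATZ, which were left out of the comparisons of that library. Farther out than Anxa13 lies Fam91a1, and Wdyhv1 is next to Fbxo32 on its other side. Wdyhv1, at 3.60, 3.25 and 7.59 CPM, and Fam91a1, at 29.0, 35.2 and 39.1, were highest in PDL1/ATZ, while Klhl38 was highest in PD1/PEM. Over all PDL1/ATZ cells 49.6% of all genes were at least 1.5-fold higher than in isotype, with a median log2 ratio of 0.58. Being highest there is thus not particular to these neighbours.

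Retreg1 (chr15:25843180-25973687, plus strand) encodes a receptor that delivers pieces of the endoplasmic reticulum to autophagy. Over all cells it stood at 129 CPM in isotype, 147 in PD1/PEM and 53.8 in PDL1/ATZ. Its levels in marker-rich cells were 166, 379 and 179, so that PD1/PEM was far above the others and PDL1/ATZ, with an interval of 123 to 251, could not be told from isotype. The ratio was 2.28-fold higher in PD1/PEM (2.01 to 2.60) and 1.08-fold higher in PDL1/ATZ (0.730 to 1.54), the latter turning to a log2 ratio of -0.19 with nuclear-encoded scaling and 0.92 when thinned to 700 UMIs. In cells under 0.5% markers Retreg1 stood at 108, 84.3 and 50.3 CPM. The thinned shares of marker-rich cells with a Retreg1 UMI were 9.52%, 20.04% and 14.5%, against 7.81%, 6.20% and 3.65% in cells under 0.5%.

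**Figure D3:**
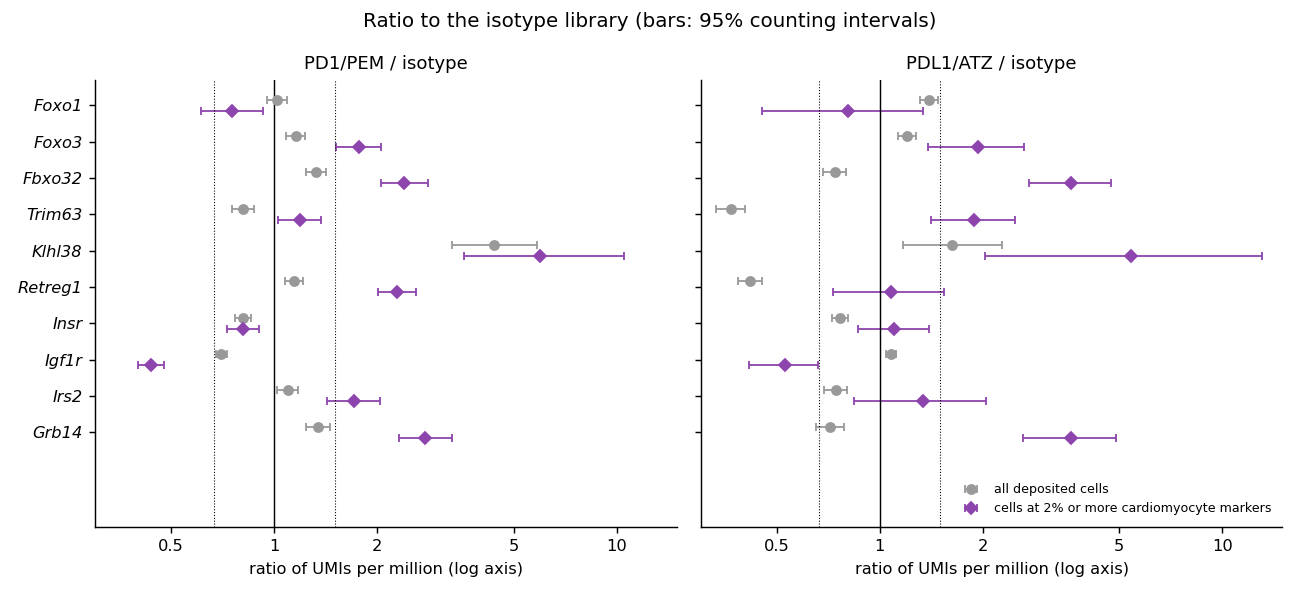
Ratio of CPM to the isotype library (log axis) for PD1/PEM (left) and PDL1/ATZ (right), over all deposited cells (circles) and in marker-rich cells (diamonds), with 95% counting intervals and dotted lines at 1.5-fold either way. Klhl38, Fbxo32, Grb14, Foxo3, Trim63, Retreg1 and Irs2 lie to the right of no difference in marker-rich cells of both libraries. Foxo1 and Igf1r lie to the left in both, Igf1r at 2.29-fold lower in PD1/PEM and 1.89-fold lower in PDL1/ATZ. Insr lies to the left in PD1/PEM and to the right in PDL1/ATZ. The PDL1/ATZ intervals of Retreg1, Irs2, Foxo1 and Insr include no difference. Klhl38 in PDL1/ATZ rests on 8 UMIs, too few to be counted as apart.

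In the small group of cells under the stricter marker rule, 8 of 10 members passed the minimum. In PD1/PEM 2 were past 1.5-fold higher, Fbxo32 at 2.07-fold (1.13 to 3.63) and Foxo1 at 1.73-fold (0.8008 to 3.41), and 0 were lower, where 13% of genes were higher and 15.3% lower. In PDL1/ATZ 0 were higher and 1 was lower, Irs2 at 1.89-fold, with an interval that included no difference, where 29.7% were higher and 12.2% lower. Foxo1 was above isotype there and below it in marker-rich cells, and its interval under the stricter rule included no difference. These cells were shallow, with medians of 906, 1030 and 840.5 UMIs, and the PD1/PEM values rest on 64 cells. The rule is stricter on markers of other classes, and these cells held less cardiomyocyte marker RNA than marker-rich cells. The marker Ryr2 stood at 4037, 3790 and 3182 CPM in them in isotype, PD1/PEM and PDL1/ATZ. It stood at 8257, 7644 and 9568 in marker-rich cells and at 3195, 2441 and 717 over all cells.

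Other genes of the pathway were taken from lists chosen with earlier results of these data known. In marker-rich cells of PD1/PEM, 5 of the 21 measured FoxO targets were at least 1.5-fold higher than in isotype and 0 lower, where 8.81% of all genes were higher and 8.17% lower. The median log2 ratio was 0.08 and that of all genes near 0, and 2 of the 5, Fbxo32 and Irs2, are members chosen on this comparison. The others were Pdk4, a kinase that holds back glucose oxidation, from 97.5 to 158 CPM, Bnip3l, a mitophagy receptor, from 43.2 to 71.8, and Pik3ip1, an inhibitor of the PI3 kinase, from 16.5 to 27.1. In PDL1/ATZ these genes stood at 97.5, 81.3 and 54.2 CPM. Over all deposited cells 0 of 24 targets were past 1.5-fold in PD1/PEM in either direction, and 4 were higher and 3 lower in PDL1/ATZ, where 49.6% of all genes were higher and 5.32% lower. Genes named here for marker-rich cells, beyond the members, were picked after their values were seen.

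Proteasome subunits, which degrade what the ligases mark, were not higher along with Fbxo32 in PD1/PEM. All 31 were below isotype over all PD1/PEM cells, none by 1.5-fold, with a median log2 ratio of -0.21 against 0.01 for all genes. In marker-rich cells 0 of 31 were past 1.5-fold higher and 2 lower, Psmb7 and Psmd6, where 8.81% of all genes were higher and 8.17% lower, with a median of -0.24. In PDL1/ATZ marker-rich cells 3 of 28 were higher and 6 lower, where 30.9% of all genes were higher and 19.3% lower, with a median of -0.13 against 0.24 for all genes.

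Of 12 muscle ubiquitin ligases measured in PD1/PEM marker-rich cells, 2 were past 1.5-fold higher, Fbxo32 and Cblb, and 0 lower, where 8.81% of all genes were higher and 8.17% lower. Fbxo32 is a member chosen on this comparison. Cblb, whose product targets IRS-1 in muscle, went from 107 CPM in isotype to 161 in PD1/PEM and 195 in PDL1/ATZ. Of 10 kelch and cullin 3 genes, 4 were higher, among them the member Klhl38, and 1 lower, against the same shares of all genes. Beside Klhl38 the higher ones were Klhl33 at 2.05-fold (1.26 to 3.39), Klhl24 at 1.63-fold (1.36 to 1.95) and Klhl13 at 1.60-fold (1.05 to 2.46). The lower one was Klhl41, a kelch gene of the sarcomere, which held 48.1 CPM in isotype and 28.2 in PD1/PEM, and 0 UMIs in the 62 PDL1/ATZ cells. Over all PD1/PEM cells Klhl41 was 1.64-fold lower (1.41 to 1.90) and its relative Klhl40, also of the sarcomere, 1.63-fold lower (1.26 to 2.14), so the kelch genes did not share one direction.

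Receptors for autophagy of the endoplasmic reticulum were split in PD1/PEM marker-rich cells, with 3 of 9 higher, Retreg1, Retreg2 and Calcoco1, and 1 lower, Retreg3, where 8.81% of all genes were higher and 8.17% lower. Retreg1 is a member chosen on this comparison. Retreg2 at 1.59-fold (0.941 to 2.73) and Retreg3 at 1.64-fold lower (0.970 to 2.84) had intervals that included no difference. Of 24 general autophagy genes 1 was higher, Atg9a at 1.87-fold (1.16 to 3.07), and 2 were lower, counts near those shares of all genes. The lower ones were Atg16l1 at 1.53-fold (1.05 to 2.25) and Optn, an autophagy cargo receptor, at 1.59-fold (1.33 to 1.91). Optn was also 1.64-fold lower over all PD1/PEM cells (1.503 to 1.795), at 52.2 CPM against 85.6 in isotype, and stood at 29.2 in PDL1/ATZ.

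Insulin receptors and adaptors, 14 measured in PD1/PEM marker-rich cells, had 3 higher (Irs2, Grb14 and Gab1), 1 lower (Igf1r) and a median log2 ratio of -0.17, where 8.81% of all genes were higher and 8.17% lower. Irs2, Grb14 and Igf1r are members chosen on this comparison, so Gab1 was the only other gene of the list past 1.5-fold. Gab1, a docking protein for growth factor receptors, went from 98.4 CPM in isotype to 164 in PD1/PEM and 260 in PDL1/ATZ. Of 29 genes of PI3 kinase, AKT and mTOR signalling, 0 were higher and 2 lower, Akt1 and Slc2a4, the latter count near the share of all genes. Slc2a4 encodes the insulin-dependent glucose transporter GLUT4, and over all cells it stood at 68.4 CPM in isotype, 39.4 in PD1/PEM and 27.8 in PDL1/ATZ. Marker-rich cells held 92.2, 53.8 and 86.7, which is 1.72-fold lower in PD1/PEM (1.346 to 2.198) and 1.06-fold lower in PDL1/ATZ (0.640 to 1.90). Over all PD1/PEM cells 2 genes of this list were higher, the lipid kinase gene Pik3cd at 1.56-fold (1.22 to 1.996) and Trib3, an AKT-binding pseudokinase, at 1.68-fold (1.19 to 2.37). Both were low, at 10.8 and 6.03 CPM in PD1/PEM. IGF ligands and binding proteins had 0 of 6 past 1.5-fold in either direction in PD1/PEM, over all cells and in marker-rich cells.

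**Figure D4:**
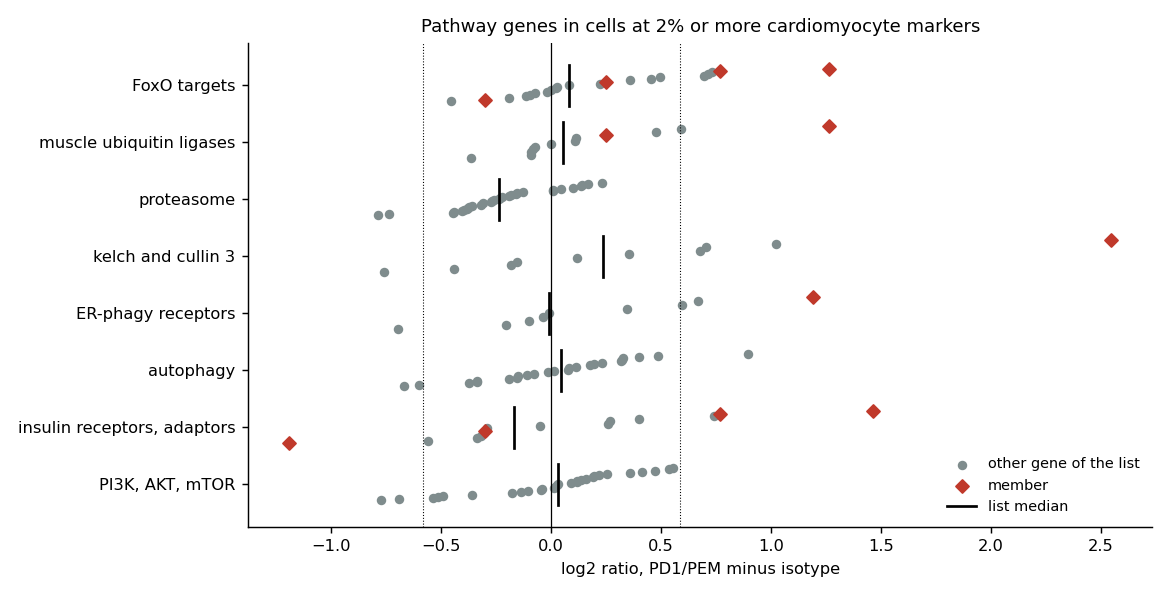
Log2 ratio of PD1/PEM minus isotype in marker-rich cells (horizontal axis) for the genes of 8 pathway lists with at least 50 UMIs, members as diamonds, other genes as circles and the list median as a bar, with dotted lines at 1.5-fold. The members Klhl38, Grb14, Fbxo32 and Retreg1 lie at the right edge of their lists and Igf1r at the left edge, while list medians run from -0.24 to 0.23.

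The genes with a pattern most like that of Fbxo32 over 21 sums of 1 cell class in 1 library, among 9096 genes, were Chrm2 with a Pearson correlation of 0.88, Tnni3k with 0.86, Rilpl1 with 0.85, Fgf12 with 0.84 and Klf6 with 0.84. For Klhl38 they were Kyat3 with 0.85, Tmem163 with 0.83, Pex6 with 0.82, Sdad1 with 0.80 and B3gnt3 with 0.80. Klhl38 itself, with 63 UMIs in isotype, 244 in PD1/PEM and 93 in PDL1/ATZ, was under the minimum of 500 UMIs set for the ranked genes. In the cardiomyocyte class its sums rested on 4, 1 and 4 UMIs. The 21 sums share libraries, depth and free RNA, so the correlations describe these libraries only.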

How the data were processed

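Pools of 3 mouse hearts each were read as 3 single-cell libraries, and the authors deposited counts: each matrix entry is the number of UMIs, always whole, of a gene in a cell. Cell Ranger, Seurat and the build mm10 stand in the submitters' processing notes, with versions, cell filters and strand use not given in the sources used here. No deposited cell had over 30% mitochondrial UMIs or over 2499 genes.

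Groups follow the sample titles. The members and all lists were chosen with earlier results of these data known. UMIs were summed per library over all cells, over cells with at least 3 of 12 cardiomyocyte markers and at most 1 marker of each other class, and over cells with at least 2% of nuclear-encoded UMIs from those markers, the last chosen after the data were seen. Sums were scaled to CPM, per 1000000 UMIs of the same cells. The 95% intervals are exact: Poisson for levels, Clopper-Pearson for shares of cells, and conditional binomial for ratios, and they cover counting error only. Log2 ratios of list genes use a pseudocount of 0.5. Symbols at 0 in every cell of PDL1/ATZ but read elsewhere (1942), or the reverse (2893), were left out of its comparisons. From each list the 2 highest and 2 lowest genes past 1.5-fold over all PD1/PEM cells were named, in order of the interval bound closer to a ratio of 1, and other named list genes were picked after their values were seen. Likeness used log2 of CPM plus 1, over sums of at least 20 cells, among genes with at least 500 UMIs. Doublets were scored against simulated ones and 724, 326 and 1076 cells marked at 0.8% per 1000 cells, and marked cells were left out only as an alternative. The ratio script was tested on simulated data. Positions are from GENCODE M21 (GRCm38). Python 3.11.15, numpy 2.4.6, scipy 1.17.1, pandas 2.3.3, scikit-learn 1.9.0 and, for TMM, edgeR 4.0.16 in R 4.3.3 were used.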

Additional observations from a re-analysis of the deposited data

Results flagged for a closer look

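Several members differed from isotype in opposite directions in marker-rich cells and in cells under 0.5% cardiomyocyte markers, with both counting intervals clear of no difference. The difference between these cell groups was not tested, since each library is 1 sample. In PD1/PEM, Trim63 was 1.19-fold the isotype level in marker-rich cells and 1.68-fold lower in cells under 0.5%. Retreg1 was 2.28-fold the isotype level in marker-rich cells and 1.28-fold lower in the others. Irs2 was 1.71-fold the isotype level in marker-rich cells and 1.35-fold lower in cells under 0.5%. In PDL1/ATZ, Fbxo32 was 3.62-fold the isotype level in marker-rich cells and 1.36-fold lower in cells under 0.5%. Grb14 was 3.62-fold the isotype level in marker-rich cells and 1.37-fold lower in cells under 0.5%. Trim63 was 1.89-fold the isotype level in PDL1/ATZ marker-rich cells and 2.57-fold lower in the others. Igf1r went the other way, at 0.528 of the isotype level in PDL1/ATZ marker-rich cells and 1.496-fold higher in cells under 0.5%.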

How the results depend on the processing

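Alternatives changed the scaling, the minimum of UMIs, the mitochondrial limit, the doublets, the depth and the marker rule, 1 at a time, and the marker-rich cells and their settings were added after the data were seen. In PD1/PEM marker-rich cells the counts of members stayed within 1.5 times the reported 6 higher and 1 lower under every alternative run. Of 126 single ratios, 110 stayed within their counting interval and 16 did not. None went from past 1.5-fold one way to past 1.5-fold the other way. Foxo1, within 1.5-fold, did change direction, from 1.33-fold lower to 1.13-fold higher when thinned to 700 UMIs. Single calls in these cells ended for Foxo3, at 1.48-fold when thinned to 700 UMIs, and for Irs2, at 1.44-fold in cells over 25% mitochondrial. Klhl38 had too few UMIs for a value in 4 of 13 settings, among them the thinned cells and the cells over 25% mitochondrial. Fewer than the reported 6 members were past 1.5-fold higher in these settings. The 64 PD1/PEM cells of the stricter rule and the 62 marker-rich PDL1/ATZ cells limit what their counts can show. Ratios in thinned cells were taken after choosing the cells again by the same marker rule. Under the stricter rule this gave 1958 isotype, 749 PD1/PEM and 281 PDL1/ATZ cells, against the 480, 64 and 108 reported. The thinned values there are thus not a depth check on the same cells. The strictest rule, no marker of another class, left 0 PD1/PEM cells and gave no value. No paired analysis was possible because each group has 1 library. The cause of each shift below was not tested.

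Over all cells, the count for PD1/PEM became 4 higher and 1 lower in cells at most 25% mitochondrial, the higher ones being Klhl38, Fbxo32, Retreg1 and Grb14 and the lower one Igf1r. For PDL1/ATZ over all cells it became 0 higher and 6 lower with nuclear-encoded scaling, median-of-ratios and TMM scaling, 0 higher and 5 lower in cells at most 25% mitochondrial, and 5 higher among its 9 cells over 25%, where Trim63 reversed to a log2 ratio of 1.46. It became 0 higher with a minimum of 200 UMIs, without doublets and when thinned to 700 UMIs.

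Under the stricter marker rule, the PD1/PEM count became 1 higher and 1 lower with TMM scaling and with 2 markers, 4 higher with no minimum of UMIs, 0 higher with a minimum of 200 UMIs and in cells at most 25% mitochondrial, 0 higher and 2 lower in cells over 25%, and 1 lower when thinned and with 5 markers. The PDL1/ATZ count there became 3 lower with nuclear-encoded scaling, with 2 markers and in cells over 25% mitochondrial, 5 lower with median-of-ratios, 6 lower with TMM scaling and 2 lower without doublets. It became 0 lower with a minimum of 200 UMIs, when thinned and with 5 markers, and 2 higher with no minimum of UMIs and with 5 markers. In PDL1/ATZ marker-rich cells the count became 2 lower with nuclear-encoded scaling, 2 higher and 2 lower with median-of-ratios and TMM scaling, 4 lower in the 1 cell over 25% mitochondrial and 0 lower when markers without Ryr2 were used.

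The median log2 ratio of all genes in PDL1/ATZ marker-rich cells, without a pseudocount, was 0.19 as reported, -0.12 with nuclear-encoded scaling, -0.44 with median-of-ratios and -0.30 with TMM scaling.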
